A study of Caenorhabditis elegans with 12 samples.

Results

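Intestinal immune effector genes that act downstream of the p38 mitogen-activated protein kinase PMK-1 in Caenorhabditis elegans were followed in whole-animal RNA-seq libraries. The genes, 9 in number and chosen by name as known PMK-1-dependent effectors, were irg-4 (F08G5.6), irg-5 (F35E12.5), irg-6 (C32H11.1), C17H12.8, K08D8.5, dod-22 (F55G11.5), dod-24 (C32H11.12), sysm-1 (T24B8.5) and mul-1 (F49F1.6), out of 46904 genes in the table. The libraries fall into 4 groups of 3 biological replicates. These were pmk-1(km25) mutants in 100 mM NaCl, pmk-1(km25) mutants in 100 mM KCl, wild-type N2 animals in 100 mM NaCl and wild-type N2 animals in 100 mM KCl. All were synchronized day 1 adults, about 1000 per sample, washed into the salt solution and held there for 4 h with no bacterial food. The NaCl solution is the low-potassium arm, but the 2 solutions differ in sodium as well. The km25 allele is known as a deletion in pmk-1, carried in every cell of the animal, so the comparison is not limited to the intestine.

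In worms, the adaptor TIR-1 signals through the kinases NSY-1 and SEK-1 to PMK-1, which acts with the transcription factor ATF-7 to keep immune effector genes on in the intestine, both at rest and during infection. Many of the induced genes encode small secreted or membrane proteins, and a large family of them carries a CUB-like domain found in nematodes. The irg genes are named as infection response genes, and the dod genes as genes downstream of the insulin-pathway factor DAF-16. The promoter of sysm-1, long known as T24B8.5, is widely used as a reporter of PMK-1 activity.

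Each library held 8931797 to 11445709 counts in total. Of all genes, 13353 had enough counts to be tested. Of the 9 effectors, 8 had a count in at least 1 library and 7 were tested. The gene irg-6 was at 0 in all 12 libraries, and mul-1 had too few counts to test. The 7 tested genes passed the filter on low counts through their wild-type levels, so the number called lower in the mutant is a description and not evidence about the 9. The first replicate of each group stood apart, most visibly in sperm marker genes. In pmk-1 NaCl the first replicate had a summed sperm marker level of 1575 CPM (counts per 1000000, library sizes scaled by TMM), against 599 and 448 CPM in the other two.

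The targeted gene itself was still read. It had 26.4, 22.6 and 21.9 CPM in pmk-1 NaCl libraries, against 24.2, 33.9 and 38.7 CPM in wild-type NaCl libraries, and the groups overlapped. In KCl it had 21.3, 22.8 and 21.3 CPM in pmk-1 animals, against 33.6, 29.3 and 35.9 CPM in wild type. Counts over the whole gene do not show whether the deleted part was read.

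Of the 9 genes, 7 lie on chromosome IV of the WBcel235 assembly. K08D8.5 (12910647 to 12912129, minus strand), irg-6 (12912722 to 12914969, minus strand), dod-24 (12940106 to 12941354, minus strand) and dod-22 (12965374 to 12967392, plus strand) lie within 56746 bases of each other. Elsewhere on IV are irg-4 (12435833 to 12438236, plus strand), C17H12.8 (6818703 to 6820575, plus strand) and mul-1 (4121342 to 4123166, minus strand). irg-5 lies on V (13737010 to 13738474, minus strand) and sysm-1 on II (9082626 to 9083193, minus strand). C17H12.8 is the 1 gene among them that overlaps another annotated gene, a piRNA on the same strand.

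How strongly were the effectors expressed in wild-type animals? To compare genes with each other, CPM were divided by exon length in kilobases. C17H12.8, a CUB-like gene, was the highest, at 31.2 ± 10.9 CPM per kb in wild-type NaCl animals and 37.8 ± 5.49 in wild-type KCl animals (SD, n = 3). The CUB-like gene dod-24 followed, at 23.5 ± 1.88 CPM per kb in NaCl and 22.9 ± 1.28 in KCl. These genes overlapped in NaCl, where the lowest C17H12.8 library had 22.1 and the highest dod-24 library 25.04 CPM per kb, but not in KCl, with 33.8 and 24.3.

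A middle group held K08D8.5, irg-4 and irg-5, all CUB-like. Their levels per kb in wild type were 8.94 ± 3.13 CPM in NaCl and 12.7 ± 2.74 in KCl for K08D8.5, 7.45 ± 0.339 and 6.76 ± 1.66 for irg-4, and 7.12 ± 2.66 and 6.56 ± 2.58 for irg-5. The libraries of irg-4 and irg-5 overlapped in both salts, and those of K08D8.5 and irg-4 overlapped in NaCl but not in KCl. sysm-1, which encodes a short ShK-like peptide, came next at 5.15 ± 2.45 CPM per kb in NaCl and 2.58 ± 0.931 in KCl, and dod-22, a CUB-like gene, at 1.43 ± 0.949 and 1.60 ± 0.728. The mucin-like gene mul-1 was lowest among the genes with counts, at 0.273 ± 0.0825 CPM per kb in NaCl and 0.612 ± 0.448 in KCl. Neighbours in this order overlapped in at least 1 of the salts, except dod-24 and K08D8.5, which overlapped in neither.

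**Figure D1:**
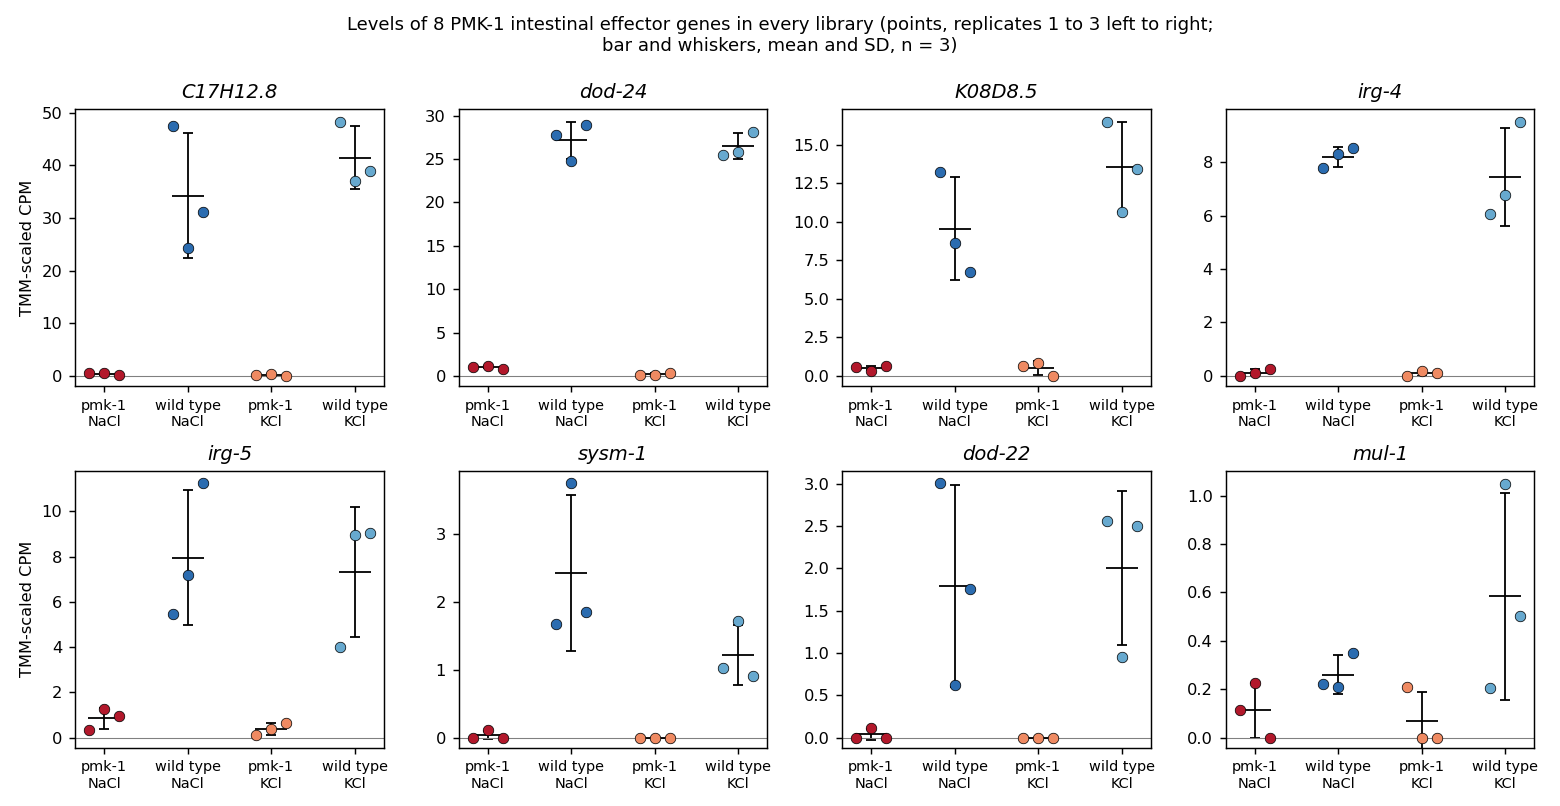
TMM-scaled CPM of 8 effectors in each library (points, replicates 1 to 3 from left to right) with the group mean and SD (bar and whiskers, n = 3), each gene on its own linear axis from 0. For every gene but mul-1, all pmk-1 libraries lie below all wild-type libraries of the same salt.

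What did loss of pmk-1 do to these genes? All 7 tested effectors were lower in pmk-1 animals in both salts. The smallest fitted change in NaCl was that of irg-5, whose ratio of pmk-1 over wild type was 0.104 (exact 95% interval 0.0639 to 0.161). In each of the 7, the 3 pmk-1 libraries lay below the 3 wild-type libraries in NaCl and again in KCl. Among all genes tested, 10.1% were called lower in pmk-1 in NaCl and 9.18% in KCl (edgeR quasi-likelihood test, Benjamini-Hochberg adjusted p under 0.05), and groups that did not overlap, with pmk-1 lower, were seen in 22.3% and 22.9%. The 7 effectors were called with and without the first replicates and when any single library was left out. An unadjusted p under 0.05 was reached by 41.6% of all genes in NaCl and 38.3% in KCl. In whole animals, fewer cells of a type and less RNA per cell cannot be told apart.

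dod-24 gave the smallest p of all 13353 genes in both salts. It had 9, 10 and 7 counts in the pmk-1 NaCl libraries, against 249, 238 and 330 in the wild-type NaCl libraries. In KCl the pmk-1 libraries had 1, 1 and 3 counts, against 248, 271 and 281 in wild type. The mutant libraries thus held 10 counts or fewer each, with more in NaCl than in KCl, while the 6 wild-type libraries lay close together. The log2 fold change was -4.74 ± 0.27 in NaCl (SE, edgeR adjusted p = 1.49e-05) and -7.20 ± 0.33 in KCl (edgeR adjusted p = 1.31e-06).

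C17H12.8 ranked 5 by p in both salts. It had 4, 5 and 1 counts in pmk-1 NaCl libraries, against 426, 233 and 354 in wild-type NaCl libraries. The KCl libraries held 1, 4 and 0 counts in pmk-1 animals, against 471, 389 and 389 in wild type. Every mutant library held 5 counts or fewer of a gene with over 200 in each wild-type library. The log2 fold change was -6.42 ± 0.53 in NaCl (edgeR adjusted p = 1.715e-04) and -7.86 ± 0.58 in KCl (edgeR adjusted p = 5.46e-05).

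irg-4 had 0, 1 and 2 counts in pmk-1 NaCl libraries, against 70, 80 and 97 in wild-type NaCl libraries. The KCl libraries held 0, 2 and 1 in pmk-1 animals, against 59, 71 and 95 in wild type. With 3 mutant counts in each salt, the size of the difference is known only loosely. The ratio of summed counts per library size, pmk-1 over wild type, was 0.0141 in NaCl (exact 95% interval 0.00289 to 0.0417) and 0.0135 in KCl (0.00275 to 0.0398), with edgeR adjusted p = 6.87e-04 and 4.09e-04.

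K08D8.5 had 0.571, 0.340 and 0.607 CPM in pmk-1 NaCl libraries, against 13.2, 8.63 and 6.76 CPM in wild-type NaCl libraries. In pmk-1 KCl libraries it had 0.621, 0.847 and 0 CPM, against 16.5, 10.7 and 13.4 CPM in wild-type KCl libraries. It kept a low but countable level in 5 of the 6 mutant libraries. The log2 fold change was -4.21 ± 0.64 in NaCl (edgeR adjusted p = 0.00309) and -4.74 ± 0.64 in KCl (edgeR adjusted p = 0.00155).

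irg-5 was lower in both salts, and had the smallest fitted change of the 7 in NaCl. It had 3, 11 and 8 counts in pmk-1 NaCl libraries, against 49, 69 and 128 in wild-type NaCl libraries. Counts in KCl were 1, 4 and 6 in pmk-1 animals, against 39, 94 and 90 in wild type. In both genotypes and both salts the first replicate was the lowest of its group. The log2 fold change was -3.21 ± 0.57 in NaCl (edgeR adjusted p = 0.00462) and -4.27 ± 0.62 in KCl (edgeR adjusted p = 0.00195).

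dod-22 was read in 1 of the 6 mutant libraries, with 0, 1 and 0 counts in pmk-1 NaCl, against 27, 6 and 20 in wild-type NaCl. In KCl it had 0 in all 3 pmk-1 libraries, against 25, 10 and 25 in wild type. The second wild-type replicate was the lowest in each salt. The ratio, pmk-1 over wild type, was 0.0219 in NaCl (exact 95% interval 5.44e-04 to 0.127; edgeR adjusted p = 0.00848). In KCl dod-22 was at least 19.8-fold lower in pmk-1, against a floor of 3 counts over the group (edgeR adjusted p = 0.00500). That bound takes the wild-type counts as exact, and with their counting error the exact 95% interval of the ratio reached up to 0.0640.

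sysm-1 showed the same pattern at a similar depth. It had 0, 1 and 0 counts in pmk-1 NaCl libraries, against 15, 36 and 21 in wild-type NaCl libraries, and in KCl 0 in all 3 pmk-1 libraries, against 10, 18 and 9 in wild type. The ratio was 0.0161 in NaCl (exact 95% interval 4.03e-04 to 0.0927; edgeR adjusted p = 0.00409). In KCl the reporter gene was at least 12.2-fold lower in pmk-1 against the same floor (edgeR adjusted p = 0.00451), and the exact 95% interval of the ratio, which includes the counting error of the wild-type counts, reached up to 0.106.

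mul-1 had 1, 2 and 0 counts in pmk-1 NaCl libraries, against 2, 2 and 4 in wild-type NaCl libraries. In KCl it had 2, 0 and 0 in pmk-1 animals, against 2, 11 and 5 in wild type. The groups overlapped in both salts. The ratio was 0.435 in NaCl (exact 95% interval 0.0744 to 1.81) and 0.112 in KCl (0.0126 to 0.468), so a difference was not detectable at this depth in NaCl, and the KCl interval covers counting error only.

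**Figure D2:**
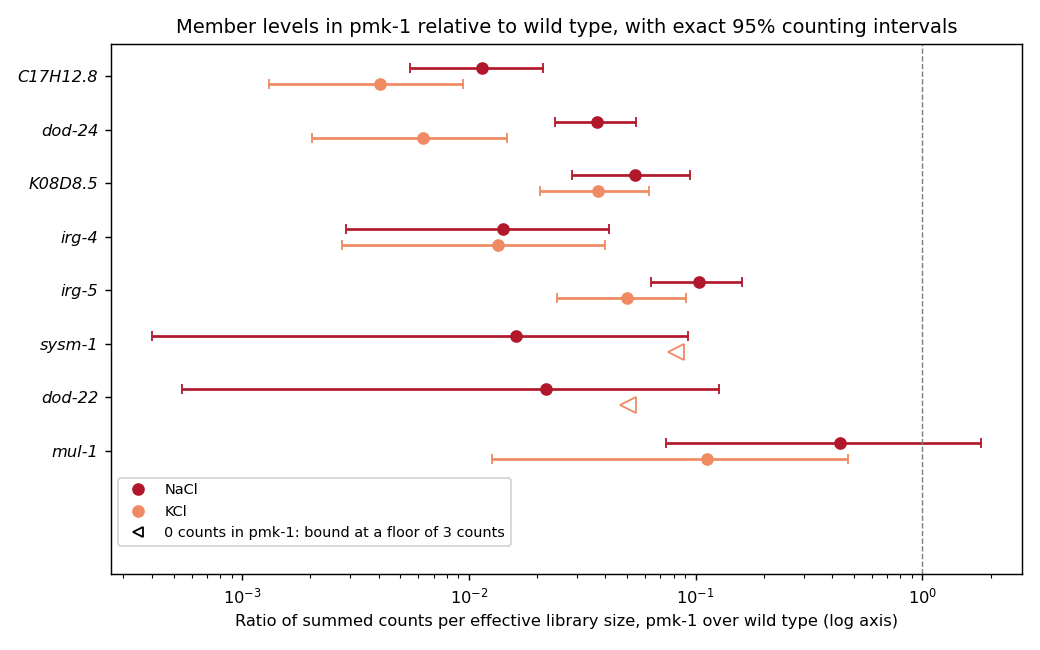
Ratio of summed counts per effective library size, pmk-1 over wild type, on a log axis, for NaCl and KCl with exact 95% intervals (counting error only). Open triangles mark genes with 0 mutant counts, drawn at the bound given by 3 counts. The ratios of irg-4, C17H12.8, K08D8.5, irg-5 and dod-24 have intervals below 1 in both salts, and mul-1 in NaCl (0.435) spans it.

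The summed level of the effectors was also set against intestinal RNA, since the animals were sequenced whole. The 11 intestine markers, among them the GATA factor gene elt-2, the gut esterase gene ges-1 and the brush-border actin gene act-5, were all detected in every group. Their summed level ranged over 2948 to 4978 CPM in pmk-1 NaCl libraries, against 2139 to 2600 CPM in wild-type NaCl libraries. In KCl it ranged over 1922 to 3449 CPM in pmk-1 and 1812 to 2166 CPM in wild type. Of the 11 markers, 6 were called higher in pmk-1 in NaCl and 3 in KCl by edgeR, and none lower (0 in NaCl and 1 in KCl at an unadjusted p under 0.05, 0 and 0 in DESeq2). Among all genes tested, 16.7% were called higher in pmk-1 in NaCl and 15.2% in KCl.

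Per 1000 intestine marker counts, the effectors together gave 0.504 to 1.27 counts in pmk-1 NaCl libraries, against 36.3 to 41.1 in wild-type NaCl libraries. In KCl they gave 0.330 to 0.979 in pmk-1 and 47.1 to 56.9 in wild type. All 7 tested effectors were called lower in both salts when the libraries were scaled to the intestine markers. That scaling moved the median log2 fold change of all genes by -0.59 in NaCl and -0.26 in KCl, towards lower in pmk-1. As it pushes every gene the same way as the effectors, these calls are not separate support.

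Summed levels of other tissue markers also differed between the genotypes, though not for every list. The 12 sperm marker genes summed to 448 to 1575 CPM in pmk-1 NaCl libraries, against 4.74 to 62.2 CPM in wild-type NaCl libraries. In KCl they summed to 397 to 958 CPM in pmk-1 and 3.01 to 39.0 CPM in wild type. The 9 embryo markers summed to 66.9 to 111 CPM in pmk-1 NaCl, against 159 to 202 CPM in wild-type NaCl. In KCl they summed to 84.9 to 129 CPM in pmk-1 and 193 to 261 CPM in wild type, and of these markers med-1 was at 0 in pmk-1 NaCl. The epidermis markers (7 genes) summed to 1660 to 2429 CPM in pmk-1 NaCl and 990 to 1219 CPM in wild-type NaCl, and the body wall muscle markers (6 genes) to 4862 to 5979 CPM in pmk-1 NaCl and 2896 to 3982 CPM in wild-type NaCl. In KCl the epidermis sums were 1742 to 2439 CPM in pmk-1 and 1064 to 1352 CPM in wild type, and the muscle sums 3235 to 6566 CPM in pmk-1 and 1744 to 3507 CPM in wild type. The oocyte markers (6 genes) summed to 2178 to 4895 CPM in pmk-1 NaCl, against 5224 to 5719 CPM in wild-type NaCl, and the neuron markers (8 genes) to 455 to 473 CPM in pmk-1 NaCl and 349 to 462 CPM in wild-type NaCl. In KCl the oocyte sums were 3365 to 4096 CPM in pmk-1 and 5200 to 5373 CPM in wild type. The neuron sums in KCl were 363 to 471 CPM in pmk-1 and 364 to 412 CPM in wild type. The neuron sums overlapped between the genotypes in NaCl and in KCl. The shares of all genes called in pmk-1 were 16.7% higher and 10.1% lower in NaCl, and 15.2% and 9.18% in KCl. The 7 epidermis markers were split, with 2 called higher and 2 lower in pmk-1 in each salt. Their log2 fold changes ran from -3.47 to 3.58 in NaCl and from -5.50 to 2.29 in KCl. None of the 6 oocyte markers was called in either salt by edgeR (1 lower in KCl at an unadjusted p under 0.05). The part of these marker differences in the lower effector levels was not tested.

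Did the salt change the effectors in wild-type animals? None of the 7 was called between NaCl and KCl by edgeR, with 0 at an unadjusted p under 0.05 and 0 in DESeq2. Over all genes tested, 0.172% were called higher and 0.015% lower in NaCl, and 4.27% had an unadjusted p under 0.05. The NaCl libraries all lay above the KCl libraries in 6.93% of genes and below in 5.6%, while none of the 7 effectors had groups apart. The steadiest was dod-24, with 27.7, 24.7 and 29.0 CPM in wild-type NaCl libraries, against 25.4, 25.8 and 28.2 CPM in wild-type KCl libraries, and a log2 fold change of 0.04 ± 0.21. sysm-1 had the widest difference, with 1.67, 3.74 and 1.84 CPM in NaCl, against 1.03, 1.71 and 0.902 CPM in KCl. The lowest NaCl library of sysm-1 lay just under the highest KCl library, and the log2 fold change was 0.98 ± 0.55 (edgeR adjusted p = 1).

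The other log2 fold changes of NaCl against KCl in wild type were -0.51 ± 0.51 for K08D8.5, -0.28 ± 0.36 for C17H12.8, -0.16 ± 0.66 for dod-22, 0.14 ± 0.43 for irg-4 and 0.12 ± 0.49 for irg-5. The signs for irg-4, irg-5 and dod-24 turned when libraries were scaled to the intestine markers, and those for irg-5, dod-22 and dod-24 turned when single libraries were left out.

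Within wild type the replicates differed in a way that ran across the salts. The first replicate had the highest C17H12.8 and K08D8.5 and the lowest irg-4 and irg-5 of its group in NaCl and again in KCl. C17H12.8 had 47.4 CPM in the first wild-type NaCl library, against 24.2 and 31.1 CPM in the other two, while irg-5 had 5.46 CPM there, against 7.17 and 11.24 CPM. In KCl, K08D8.5 had 16.5 CPM in the first library, against 10.7 and 13.4 CPM, and irg-4 had 6.05 CPM, against 6.76 and 9.52 CPM. These effectors thus did not all share 1 order of replicates. Counting error was not taken into account in these orders, and irg-4 had 59 to 97 counts in the wild-type libraries.

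Pairwise Pearson correlations of log2 CPM were computed with and without the genotype difference. Over the 12 libraries the 21 pairs of tested effectors had r between 0.853 and 0.974, with a median of 0.939. Every pair shares the genotype difference there. Over the 6 wild-type libraries, after subtraction of the group means, r ran from -0.971 to 0.863 with a median of -0.112. These libraries share replicate numbers, and the values are a description that includes counting error. The lowest r was that of dod-22 and sysm-1, with 6 to 27 and 9 to 36 counts in the wild-type libraries.

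What remained of the effectors in the mutant, and did it depend on the salt? One gene, dod-24, was called higher in NaCl than in KCl in pmk-1 animals. Its pmk-1 NaCl libraries had 1.03, 1.13 and 0.850 CPM, against 0.104, 0.0941 and 0.311 CPM in the pmk-1 KCl libraries, and the groups did not overlap. Its log2 fold change was 2.50 ± 0.38 (edgeR adjusted p = 0.00503). Over all genes tested, 2.33% were called higher in NaCl in pmk-1, 0.382% were called lower, 9.78% had NaCl libraries all above the KCl libraries and 6.34% all below. In both salts dod-24 stayed far below wild type, at 1.00 ± 0.143 CPM in pmk-1 NaCl and 0.169 ± 0.122 CPM in pmk-1 KCl, against 27.1 ± 2.17 CPM in wild-type NaCl and 26.5 ± 1.48 CPM in wild-type KCl.

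The dod-24 difference rests on 26 counts in NaCl, against 5 in KCl, a ratio of 6.03 with an exact 95% interval of 2.28 to 20.1 that covers counting error only. It remained called when any single library was left out (edgeR adjusted p up to 0.0463, without the second pmk-1 KCl replicate) and without the first replicates (log2 2.21 ± 0.59, 0.0393). It was not called when libraries were scaled to the intestine markers (log2 1.97, edgeR adjusted p = 0.0729), whose summed level in pmk-1 was 2948 to 4978 CPM in NaCl, against 1922 to 3449 CPM in KCl.

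The other effectors with mutant counts above the floor were not called. irg-5 had 0.342, 1.24 and 0.971 CPM in pmk-1 NaCl libraries, against 0.104, 0.376 and 0.621 CPM in pmk-1 KCl libraries, with overlap and a log2 fold change of 1.19 ± 0.67 (edgeR adjusted p = 0.487). C17H12.8 stood at 1.16 ± 0.81 (0.602) and K08D8.5 at 0.02 ± 0.74 (0.990). irg-4, with 3 counts in each salt, and dod-22 and sysm-1, with 1 count in NaCl and 0 in KCl, were at or under the floor in both.

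**Figure D3:**
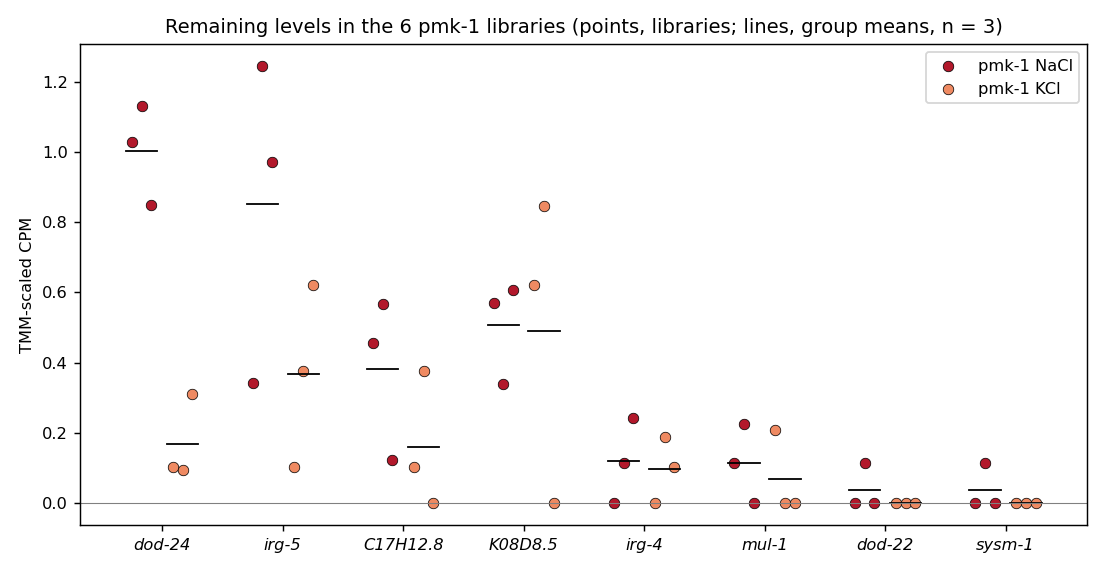
TMM-scaled CPM of 8 effectors in the 6 pmk-1 libraries (points) with group means (lines, n = 3 each), pmk-1 NaCl left of pmk-1 KCl for each gene. The 3 NaCl libraries of dod-24 lie between 0.850 and 1.13 CPM, above its 3 KCl libraries, while every other gene overlaps between the salts.

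Whether the salt effect differed between the genotypes was tested as an interaction. No effector passed it in edgeR or in DESeq2, and 1 had an unadjusted p under 0.05, as did 5.01% of all genes. That gene was dod-24, with a difference of salt effects, pmk-1 minus wild type, of 2.46 ± 0.43 on the log2 scale (edgeR adjusted p = 0.0734, between 0.0639 and 0.475 over the alternatives). Across all genes tested 0.0374% were called higher and 0% lower, 5 genes in all. The call in pmk-1 without a call in wild type is therefore not shown to be a difference between the genotypes.

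How did the rest of the pathway behave beside its outputs? All 11 listed genes of the p38 cascade and its regulators were tested. In NaCl 2 were called higher in pmk-1, a share near the 16.7% of all genes, and 0 lower (3 lower at an unadjusted p under 0.05, 2 in DESeq2), with a list median of 0.30 on the log2 scale against 0.06 for all genes. The Tribbles-like kinase gene nipi-3 stood at 0.74 ± 0.12 (edgeR adjusted p = 0.00343) and pmk-3, a p38 kinase gene related to pmk-1, at 0.69 ± 0.20 (0.0258). Next by p were the adaptor gene tir-1, at 0.62 ± 0.24 (0.0716), and pmk-1 itself, at -0.45 ± 0.18 (0.0809). pmk-3 was not called without pmk-1 NaCl 1 or any 1 of the wild-type NaCl libraries (edgeR adjusted p up to 0.126), nor without the first replicates (0.0862), and neither it nor nipi-3 was called after scaling to the intestine markers (0.929 and 0.752).

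In KCl 3 cascade genes were called lower in pmk-1 and 0 higher (0 at an unadjusted p under 0.05, 0 in DESeq2). Over all genes 9.18% were called lower and 15.2% higher. The list median was -0.30, against 0.02 for all genes. The 3 called genes were tir-1 (-0.999 ± 0.240, edgeR adjusted p = 0.0128), pmk-1 (-0.59 ± 0.18, 0.0326) and the transcription factor gene atf-7 (-0.30 ± 0.10, 0.0432). Another p38 gene, pmk-2, had -0.55 ± 0.26 (0.144). Without wild-type KCl 3, tir-1 did not pass (0.0695). pmk-1 was not called without any 1 of the 6 KCl libraries or pmk-1 NaCl 2 (up to 0.128), and atf-7 was not called without any 1 of 9 libraries (up to 0.150). After scaling to the intestine markers neither pmk-1 nor atf-7 was called (0.0878 and 0.238). The 5 tested effectors with counts in the pmk-1 KCl libraries had log2 changes of -4.27 or lower there.

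Between the salts in pmk-1 animals, 2 cascade genes were called higher in NaCl, as were 2.33% of all genes. nipi-3 had 146, 125 and 114 CPM in pmk-1 NaCl libraries, against 53.6, 56.1 and 56.6 CPM in pmk-1 KCl libraries (log2 1.21 ± 0.12, edgeR adjusted p = 3.46e-04). tir-1 had 74.3, 69.7 and 49.3 CPM in NaCl, against 22.4, 20.4 and 15.3 CPM in KCl (log2 1.73 ± 0.24, 0.00337). Both calls were lost after scaling to the intestine markers (0.227 and 0.0956). pmk-3 (0.80 ± 0.20, 0.0613) and the MAP kinase phosphatase gene vhp-1 (0.90 ± 0.23, 0.0685) were next by p. In wild type nipi-3 had 72.0, 78.8 and 79.2 CPM in NaCl, against 51.7, 61.0 and 64.2 CPM in KCl, also without overlap (log2 0.38 ± 0.12, edgeR adjusted p = 0.495). There no cascade gene was called between the salts by edgeR (1 higher and 1 lower at an unadjusted p under 0.05, 0 in DESeq2). The shares of all genes called in wild type were 0.172% higher and 0.015% lower in NaCl.

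A list of 15 other effector genes reported as PMK-1-dependent or pathogen-responsive did not move as 1 group. Of 13 tested, 4 were called lower and 3 higher in pmk-1 in NaCl, and 7 lower and 2 higher in KCl. Over all genes 10.1% were called lower and 16.7% higher in NaCl, and 9.18% lower and 15.2% higher in KCl, so the share called higher in KCl was near that of all genes. The list medians were -0.61 in NaCl and -1.44 in KCl. Of these calls, clec-60, irg-2 and ilys-3 in NaCl and F55G11.2, clec-85 and clec-4 in KCl did not hold when some single libraries were left out (edgeR adjusted p up to 0.208 for ilys-3 and 0.234 for clec-4). The lysozyme gene lys-2 had 6.05, 5.43 and 6.19 CPM in pmk-1 NaCl libraries, against 94.1, 56.0 and 69.2 CPM in wild-type NaCl libraries. Its log2 fold change was -3.63 ± 0.35 in NaCl (edgeR adjusted p = 3.94e-04) and -4.79 ± 0.36 in KCl (6.45e-05).

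The C-type lectin gene clec-67 was at 0 in all 3 pmk-1 NaCl libraries, against 13, 17 and 37 counts in wild-type NaCl. It was at least 19.2-fold lower against a floor of 3 counts over the group (edgeR adjusted p = 0.00291). That bound takes the wild-type counts as exact, and with their counting error the exact 95% interval of the ratio reached up to 0.0657. In KCl the ratio of clec-67, pmk-1 over wild type, was 0.0333 (exact 95% interval 0.00674 to 0.100). The infection response gene irg-2 was lower in KCl, at -3.37 ± 0.40 (edgeR adjusted p = 7.50e-04). B0024.4 went the other way, with 34.7, 13.8 and 8.38 CPM in pmk-1 NaCl, against 2.00, 1.04 and 0.615 CPM in wild-type NaCl. Its log2 fold change was 3.97 ± 0.60 in NaCl (edgeR adjusted p = 0.00296) and 4.23 ± 0.59 in KCl (0.00171).

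C09H5.2, entered in the effector list, is annotated as catp-3, a sodium-pump alpha-subunit family gene, and stood at -2.65 ± 0.65 in pmk-1 against wild type in NaCl (edgeR adjusted p = 0.0129). Between the salts in pmk-1, 2.33% of all genes were called higher in NaCl and 0.382% lower. Of the 13 effector genes, 2 were called higher in NaCl and 0 lower (0 at an unadjusted p under 0.05, 0 in DESeq2). They were irg-2 (2.46 ± 0.39, edgeR adjusted p = 0.00665; not called without pmk-1 KCl 3, at 0.0547) and catp-3 (4.34 ± 0.74, 0.00942; not called without pmk-1 KCl 2, at 0.0655). Next by p were lys-8, a lysozyme gene, at 1.08 ± 0.32 (0.127) and ilys-3, an invertebrate-type lysozyme gene, at 2.66 ± 1.09 (0.326). catp-3 had 234, 89.5 and 46.0 CPM in pmk-1 NaCl libraries, against 13.3, 3.86 and 1.14 CPM in pmk-1 KCl libraries. In wild type it had 814, 784 and 726 CPM in NaCl, against 79.8, 132 and 159 CPM in KCl. The salts did not overlap in either genotype, and the wild-type log2 fold change was 2.65 ± 0.65 (edgeR adjusted p = 0.202). In wild type none of the 13 was called between the salts by edgeR (2 higher and 1 lower at an unadjusted p under 0.05, 0 in DESeq2). The shares of all genes called there were 0.172% higher and 0.015% lower in NaCl. Neither irg-2 nor catp-3 was called in pmk-1 when the 6 pmk-1 libraries were fitted alone (0.133 and 0.170).

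A further list of 20 genes, taken as CUB-like or as neighbours of CUB-like genes and not checked for the domain here, held 13 tested genes. In NaCl 3 were called lower in pmk-1 and 0 higher (0 at an unadjusted p under 0.05, 0 in DESeq2). In KCl 3 were lower and 0 higher (likewise 0 and 0), while DESeq2 called 5 lower. Without adjustment, 6 were lower in KCl with p below 0.05. The shares of all genes called lower were 10.1% in NaCl and 9.18% in KCl, and those called higher 16.7% and 15.2%. Between the salts 1 was called lower in NaCl in pmk-1 and 0 in wild type (1 lower at an unadjusted p under 0.05, 0 in DESeq2). Of all genes tested, 0.382% were called lower in NaCl than in KCl in pmk-1 and 0.015% in wild type. irg-3, dod-21 and F55G11.2 are in the CUB-like list and in that of the other effectors. The medians were -0.61 in NaCl and -1.17 in KCl, against -5.13 and -6.57 for the 7 effectors. The NaCl value of the effectors is the fitted change of dod-22, which had 1 count over the pmk-1 NaCl libraries. Their KCl value includes 2 fitted changes of genes with 0 mutant counts. With dod-22 and sysm-1 at their bounds the KCl median of the 7 is -4.74.

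Of the named genes of that list, ZK896.4 had 0.913, 0.679 and 0.850 CPM in pmk-1 NaCl libraries, against 4.79, 2.91 and 2.63 CPM in wild-type NaCl libraries (log2 -2.06 ± 0.50, edgeR adjusted p = 0.0127). Between NaCl and KCl in pmk-1 it stood at -2.48 ± 0.50 (0.0229), a call lost without any 1 of 5 pmk-1 libraries (up to 0.101). That call was also lost when the 6 pmk-1 libraries were fitted alone (0.168). F55G11.8 was at -1.93 ± 0.65 in NaCl (0.0478; not called without any 1 of 8 libraries, at up to 0.115). C32H11.4 was at -1.62 ± 0.45 in NaCl (edgeR adjusted p = 0.0226; up to 0.0642 without pmk-1 NaCl 2, wild-type NaCl 1 or wild-type NaCl 3) and -1.44 ± 0.45 in KCl (0.0364; up to 0.104 without any 1 of 6 libraries). F35E12.9 was at -1.27 ± 0.32 in KCl (0.0155; not called without wild-type KCl 3, at 0.0673). F35E12.9 and F35E12.6 are the nearest genes on either side of irg-5. F35E12.6 was not called, at 0.28 ± 0.28 in NaCl and 0.01 ± 0.28 in KCl, with 92.6, 43.8 and 41.8 CPM in pmk-1 NaCl, against 45.8, 49.4 and 51.7 CPM in wild-type NaCl.

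**Figure D4:**
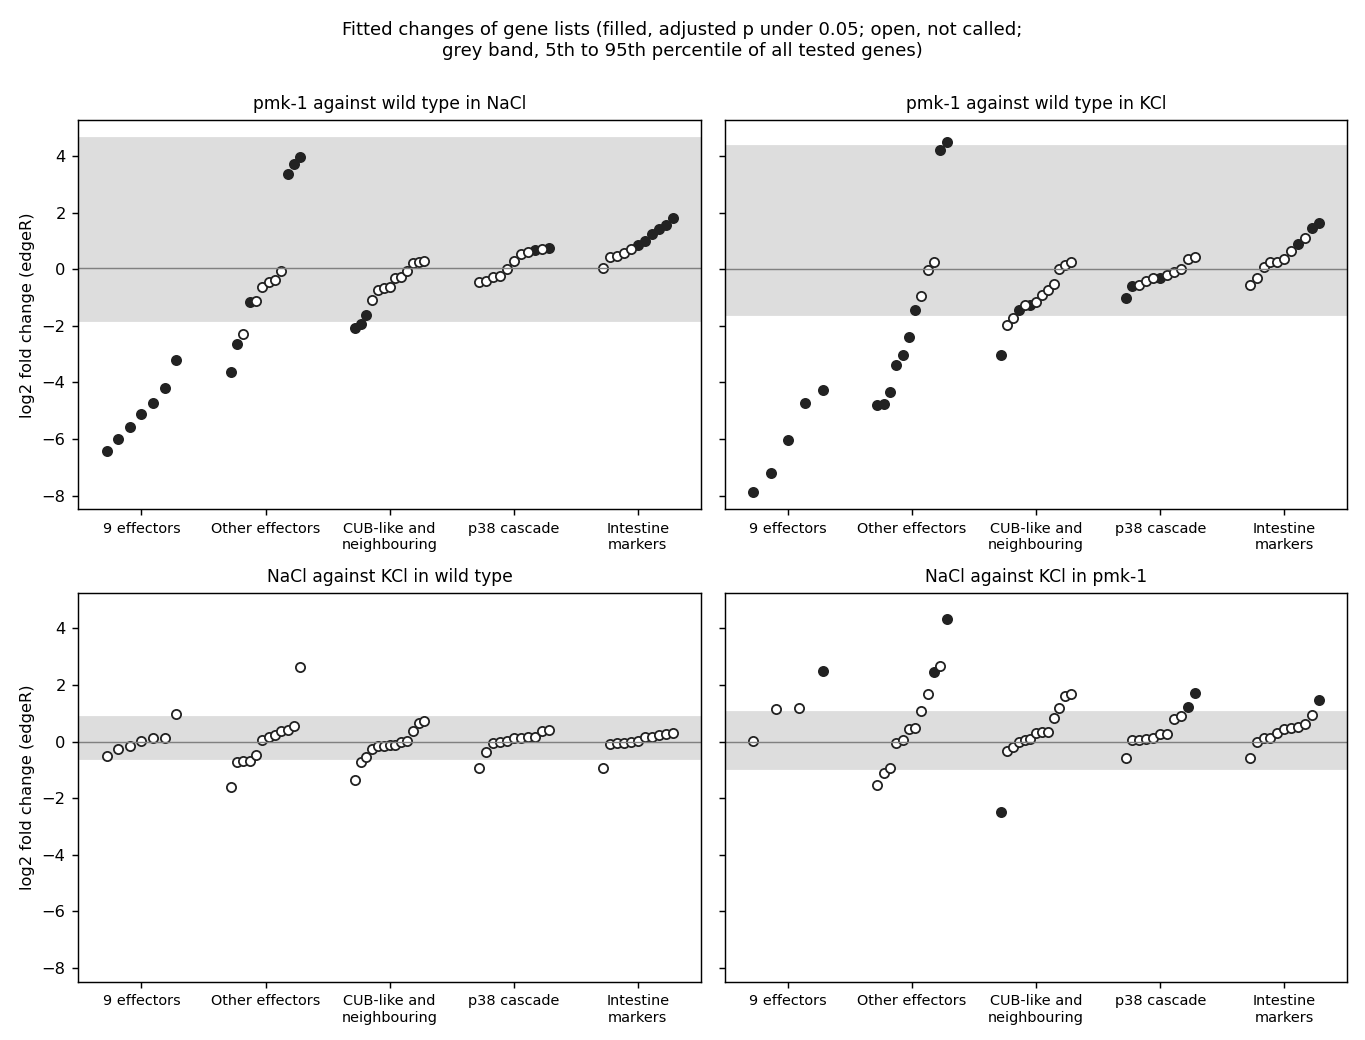
Fitted log2 fold changes (edgeR) of the tested genes of 5 lists in 4 comparisons, filled where the adjusted p was under 0.05, with the 5th to 95th percentile of all tested genes as a grey band. Genes with 0 counts in a whole group compared, and irg-4, dod-22 and sysm-1 in the pmk-1 salt panel, are left out. The effectors fill the range from -3.21 downwards in NaCl, below the lower edge of the band at -1.83.

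Where on the chromosome did the genotype effect extend? Around the block of K08D8.5, irg-6, dod-24 and dod-22 on IV, a window from 10 kb before K08D8.5 to 20 kb after dod-22 held 29 protein-coding genes. Of the 25 that are not among the 9 effectors, 7 had enough counts to test. In NaCl 3 of these were called lower and 1 higher in pmk-1, and in KCl 3 were called lower and 0 higher. Over all genes 10.1% were called lower and 16.7% higher in NaCl, and 9.18% and 15.2% in KCl. C32H11.4, F55G11.8, F55G11.2, F55G11.4 and dod-17 are also in the list of CUB-like genes above. The nearest tested gene to K08D8.5, K08D8.4, was lower as well, with a mean of 1.104 CPM in pmk-1 NaCl, against 12.3 CPM in wild-type NaCl, and 0.423 CPM in pmk-1 KCl, against 12.9 CPM in wild-type KCl. Its log2 fold change was -3.46 ± 0.67 in NaCl (edgeR adjusted p = 0.00569) and -4.87 ± 0.74 in KCl (0.00243).

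F55G11.4 and dod-17, past dod-22 in the block, were not called, at -0.73 ± 0.48 and -1.09 ± 0.62 in NaCl and -1.28 ± 0.50 and -1.98 ± 0.69 in KCl. dod-21, close to dod-24, had between 0 and 5 counts in every library. F55G11.2, which lies just past dod-22 on the other strand, stood at -0.61 ± 0.75 in NaCl and -3.03 ± 0.83 in KCl (edgeR adjusted p = 0.0224, and not called without pmk-1 KCl 2, wild-type KCl 2 or wild-type KCl 3, at up to 0.0893). The other calls in the window were C32H11.4 in both salts and F55G11.8 in NaCl, described above, and K08D8.3, at 0.45 ± 0.14 in NaCl (edgeR adjusted p = 0.0367). K08D8.3 was not called without any 1 of 8 libraries (up to 0.134) and stood at -0.15 after scaling to the intestine markers. Untested genes, irg-6 among them, say nothing on the extent of the effect.

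**Figure D5:**
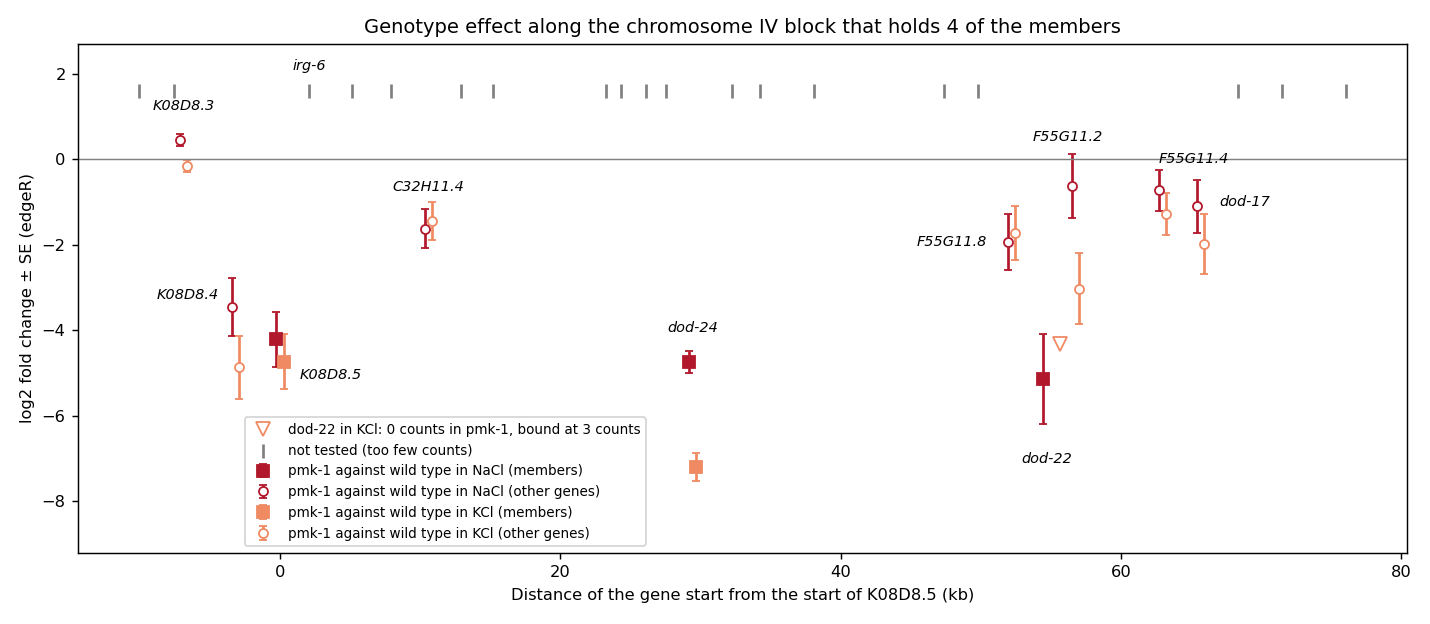
log2 fold change ± SE (edgeR, pmk-1 against wild type) by distance from the start of K08D8.5 on chromosome IV, in kb, for NaCl and KCl. Squares are the effectors, circles the other tested genes, grey ticks the genes with too few counts, and the open triangle the bound for dod-22 in KCl. K08D8.4 at -3.46 and -4.87 lies near the effectors, and the other genes lie above it in each salt.

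Away from that block, some neighbours of the effectors changed and others did not. Over all genes 10.1% were called lower and 16.7% higher in pmk-1 in NaCl, and 9.18% and 15.2% in KCl. C17H12.6, just past C17H12.8, had 0 counts in all 6 pmk-1 libraries, against 29 counts over the wild-type NaCl libraries and 74 over the wild-type KCl libraries. Against a floor of 3 counts over the group it was at least 8.33-fold lower in NaCl and at least 24.44-fold lower in KCl. Those bounds take the wild-type counts as exact. With the counting error of the wild-type counts, the exact 95% intervals of the ratio reached up to 0.157 and 0.0516. On II, T24B8.3, a near neighbour of sysm-1, had a mean of 25.5 CPM in pmk-1 NaCl, against 158 CPM in wild-type NaCl, with a log2 fold change of -2.63 ± 0.24 (edgeR adjusted p = 3.13e-04). In KCl it stood at -2.95 ± 0.24 (1.10e-04). The gene between it and sysm-1, T24B8.4, was not called, at 0.90 ± 0.31 in NaCl (0.0514) and 0.43 ± 0.31 in KCl (0.326). On the other side of sysm-1, the basic helix-loop-helix gene hlh-3 stood at -1.91 ± 0.53 in NaCl (0.0222; up to 0.0759 without pmk-1 NaCl 1, wild-type NaCl 2 or wild-type NaCl 3) and -1.74 ± 0.52 in KCl (0.0313; up to 0.113 without any 1 of 4 KCl libraries). Some neighbours were higher in pmk-1: C17H12.5, beside C17H12.8, at 4.76 ± 1.23 in NaCl and 5.46 ± 1.39 in KCl, and F49F1.5, beside mul-1, at 4.404 ± 1.13 in NaCl and 5.54 ± 1.22 in KCl. Their NaCl calls (0.0165 and 0.0156) and the KCl call of C17H12.5 (0.0163) did not hold without some single libraries, at up to 0.0697. Near irg-5, dct-17 was at 2.46 ± 0.84 in NaCl (edgeR adjusted p = 0.0491, and up to 0.237 without any 1 of 9 libraries). It was not called in KCl (0.588). Not called in either salt were clec-184 and col-130 near irg-4, ceh-48 and H20E11.3 near C17H12.8, F35E12.10 near irg-5 and C07H4.1 near sysm-1.

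Which other genes had the most similar pattern over the 12 libraries? The mean of the centred effectors carries the genotype difference that all of them share. A high r with it thus marks a clear split between the genotypes, and likeness within a genotype was not tested. Among 9365 genes with a mean of at least 5 CPM, the highest correlation with the mean of the centred effectors was 0.990, for F56A4.2 and Y19D10A.9. These both carry the name clec-209, a C-type lectin gene, and had equal counts in all 12 libraries, so the value of either is uncertain. They had a mean of 6.46 CPM in pmk-1 NaCl, against 59.5 CPM in wild-type NaCl, and 3.84 CPM in pmk-1 KCl, against 55.4 CPM in wild-type KCl.

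The next were igcm-1, which encodes an immunoglobulin-like cell adhesion protein (r = 0.980), C08F11.12 (0.978), lys-2 (0.975) and sec-15, for a subunit of the exocyst (0.975). igcm-1 was also the closest gene to C17H12.8 (0.982) and to K08D8.5 (0.960). Closest to dod-24 was F56A4.2 (0.9895), to dod-22 lys-2 (0.956), to sysm-1 C08F11.12 (0.961), to irg-4 Y7A9D.1 (0.987) and to irg-5 C36B7.6 (0.988). Likeness did not follow the size of the change: sec-15 differed by -0.59 ± 0.14 in NaCl and -0.80 ± 0.14 in KCl on the log2 scale, and C36B7.6 by -0.65 ± 0.15 and -0.96 ± 0.15, against -3.06 ± 0.35 and -4.43 ± 0.38 for igcm-1. In NaCl sec-15 was not called without wild-type NaCl 2 (edgeR adjusted p = 0.0550), nor C36B7.6 without wild-type NaCl 3 (0.0512).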

How the data were processed

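The authors deposited 1 table of expected counts per gene and library, whole numbers as deposited, with no column left unused. The submitters' processing notes list DESeq2 1.40.2 and R 4.3.1 beside the aligner STAR 2.7.1a and the quantifier RSEM 1.3.3. How each was used, and the build and strand setting, is not given in the sources used here. Positions come from Ensembl release 115, in which 46817 of the 46904 identifiers were found, and 19509 genes had a count.

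All 12 libraries were fitted together with the edgeR 4.0.16 quasi-likelihood test in R 4.3.3, with 1 mean per group, filterByExpr, TMM scaling and Benjamini-Hochberg adjustment over 13353 genes. Values after ± beside log2 fold changes are SE, computed as the size over the square root of F. DESeq2 1.42.0 was an alternative. The fit was tested on simulated data. Ratios of summed counts have exact binomial 95% intervals. All intervals and the floor of 3 counts over a group cover counting error only, and p-values measure the spread between the labelled biological replicates.

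The 9 effectors and the lists were chosen with earlier results of these data known. From each list the 4 genes of smallest p in a comparison were named where described, with the nearest protein-coding genes on either side of each effector and the most correlated genes. C09H5.2 and the genes of the CUB-like list were taken by sequence name. F35E12.6 and T24B8.4 were named as neighbours. Promoter and protein sequences were not used here.

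The pairing by replicate number was checked from the deviations of libraries from their group means across genes. The correlations for numbers 1, 2 and 3 were 0.423, 0.226 and 0.259 between genotypes in NaCl, 0.629, 0.197 and 0.496 between salts in wild type and 0.743, 0.391 and 0.541 between salts in pmk-1, so by the rule used (each over 0.1) the numbers paired the samples there. Between genotypes in KCl they were 0.431, 0.0717 and 0.334, which does not meet it. For number 2 the highest correlation with another number was larger, at 0.256 between salts in wild type, 0.52 between salts in pmk-1 and 0.279 between genotypes in KCl. The main fit did not use this pairing, and the replicate block was run as an alternative.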

Additional observations from a re-analysis of the deposited data

How the results depend on the processing

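The 7 effectors were called lower in both salts under the replicate block, DESeq2, RLE scaling, scaling to intestine markers, no filter, without the first replicates and without any single library. A stricter filter (at least 5 CPM in 3 libraries) left 5, all called. Fits of only the groups compared called 6 lower in NaCl and 5 in KCl, since their filter left out dod-22 in NaCl and dod-22 and sysm-1 in KCl. The dod-24 salt call in pmk-1 became 0 called after scaling to intestine markers and, with only the groups compared, where the filter left it out, also 0. As reported, 2232 genes were higher and 1349 lower in pmk-1 in NaCl, 2031 and 1226 in KCl, 25 were called with 2 lower between salts in wild type, 311 higher and 51 lower in pmk-1, and 5 and 0 in the interaction. With the replicate block no call on an effector changed, while genes called lower in pmk-1 went to 2221 in NaCl and 1959 in KCl, NaCl against KCl in wild type to 131 called with 23 lower, in pmk-1 to 533 higher and 146 lower, and the interaction to 32 and 8. DESeq2 gave 132 with 27 lower, 508 and 156, and 81 and 27 for these last 3. Scaling to intestine markers moved the median of all genes by -0.59 (NaCl) and -0.26 (KCl) between genotypes, by -0.22 and -0.54 between salts in wild type and pmk-1, and by -0.31 in the interaction. It gave 1232 genes higher in pmk-1 in NaCl, 74 higher and 161 lower in pmk-1, and 2 and 1 in the interaction. With no filter 1 gene was lower in NaCl in wild type and 19 higher in the interaction. The stricter filter gave 1240 higher in pmk-1 in KCl and 10 and 1 in the interaction. Fits of only the groups compared gave 154 called with 21 lower in wild type and 43 and 5 in pmk-1. Without the first replicates 2081 genes were lower in pmk-1 in NaCl and 1922 in KCl, with 134 called and 30 lower in wild type, 571 and 499 in pmk-1 and 58 and 39 in the interaction.

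Leaving out 1 library gave 1064 to 2651 higher and 625 to 1740 lower in pmk-1 in NaCl, 822 to 2686 and 568 to 1787 in KCl, 0 to 78 called with 0 to 10 lower between salts in wild type, 97 to 418 and 13 to 132 in pmk-1, and 2 to 18 and 0 to 3 in the interaction. Some uncalled salt changes turned sign. For K08D8.5 in pmk-1 the log2 value was -0.0130 in DESeq2, -0.0106 under RLE, -0.52 under intestine scaling and -0.57 to 0.65 without single libraries, and its interaction -0.0739 to 1.14. In wild type irg-4, irg-5 and dod-24 stood at -0.0920, -0.10 and -0.19 under intestine scaling, and irg-5 ran from -0.21 to 0.33, dod-22 from -0.73 to 0.24 and dod-24 from -0.0132 to 0.10 without single libraries. K08D8.3, called higher in pmk-1 in NaCl, stood at -0.15 under intestine scaling. The causes were not tested. Depth limits irg-6, mul-1 and, in the mutant, irg-4, dod-22 and sysm-1, which hold 3 counts or fewer per group.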
